A study of Homo sapiens with 4 samples.

Results

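The cell lines Huh7 and HepG2 both derive from human liver tumours and often serve as models of liver cancer in the same study. RNA was compared here between the Huh7 library and the HepG2 library that had received a negative control siRNA (NC-siRNA), so that the comparison describes how the lines differed without knockdown. The members were all genes with a TPM of at least 1 (TPM is a level normalised for gene length that sums to 1000000 in each library) in either library, 15055 of 46427 genes in the tables. The wider study asked which genes respond when COP1, a ubiquitin ligase, is knocked down in each line. Cells of both lines received 20 nM of NC-siRNA or of COP1-siRNA, which targets COP1, and were harvested after 48 h, 4 libraries in all with 1 per line and siRNA. The labels give no genetic change other than the siRNA, each group is a single line in culture, and all 4 samples carry the same batch label. The measure used throughout was log2((TPM in Huh7 + 1)/(TPM in HepG2 + 1)), called the log2 difference, which is positive where Huh7 was higher and which understates the difference of genes with low TPM. With 1 library a side there was no replicate check and no test, so all differences are given as values, with 2-fold as the threshold. The COP1-siRNA libraries of the same lines served as a second view of the line difference, and they are not replicates because the siRNA differs.

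Hepatocytes make most proteins of blood plasma, package lipids into lipoproteins, and carry out detoxification, bile acid synthesis and ammonia disposal. This programme is held in place by a network of transcription factors that includes HNF4A, the FOXA proteins and CEBPA. Liver tumour lines keep parts of the programme and often express genes of the fetal liver, such as AFP.

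The labels were checked against hepatocyte markers, and the libraries labelled HepG2 went against their label in part. ALB, which encodes albumin, was at 8117 and 6683 TPM in Huh7 and 1509 and 1598 TPM in the HepG2-labelled libraries, in each case with NC-siRNA given first and COP1-siRNA second. FGB, the fibrinogen beta chain, was at 2461 and 2403 TPM in Huh7 and 6.97 and 15.5 TPM in the HepG2-labelled libraries. TTR, a thyroid hormone carrier of plasma, was at 520.1 and 526 TPM in Huh7 and 20.9 and 27.9 TPM in the HepG2-labelled libraries. All of these were lower in both HepG2-labelled libraries than in both Huh7 libraries, although HepG2 cells are known for the secretion of albumin and fibrinogen. The transcription factor gene HNF4A was at 64.6 and 58.9 TPM in Huh7 and 9.13 and 12.1 TPM in the HepG2-labelled libraries. The order was the other way for CPS1, the first enzyme of the urea cycle, with 7.14 and 6.45 TPM in Huh7 and 17.4 and 16 TPM in the HepG2-labelled libraries. APOA1, the main protein of high-density lipoprotein, was at 234 and 212 TPM in Huh7 and 234 and 317 TPM in the HepG2-labelled libraries and did not separate the lines. Of 16 hepatocyte markers 15 reached 1 TPM in either library, and 66.7% (10 of 15) were 2-fold or more higher in Huh7 and 6.67% (1 of 15) in the HepG2-labelled library, with a median log2 difference of 2.42. Their summed level was 16856 and 14552 TPM in Huh7 and 3389.8 and 3964 TPM in the HepG2-labelled libraries, and CYP3A4, an adult drug-metabolizing enzyme, was listed at 0 in all 4 libraries. In bulk RNA, fewer cells with hepatocyte features and less of these RNAs per cell cannot be told apart.

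A further point against the label was CD81, a tetraspanin that serves as a receptor of hepatitis C virus and that HepG2 cells are known to lack. CD81 was at 25.4 and 24.2 TPM in Huh7 and 286 and 301 TPM in the HepG2-labelled libraries. It was thus well expressed in the libraries that should lack it. Genes that are not part of the hepatocyte programme were also high there. IRS4, an insulin receptor substrate of restricted expression, was listed at 0 and 0 TPM in Huh7 and 209 and 184 TPM in the HepG2-labelled libraries. GAL, which encodes the neuropeptide galanin, was at 0 and 0.234 TPM in Huh7 and 221 and 161 TPM in the HepG2-labelled libraries. HOX genes, which set position along the body axis in the embryo, were high there as well and are described further on. Other liver genes were higher in the HepG2-labelled libraries than in Huh7, among them CES1, HPD and SERPINA3, so hepatocyte genes were present in both lines. Between the HepG2-labelled libraries, 13 of the 15 hepatocyte markers were higher with COP1-siRNA than with NC-siRNA, with a median log2 difference of 0.34. The share over all genes was not computed, so this count is not read as particular to the markers. Other lists of liver genes gave 24 of 30 (plasma proteins), 27 of 35 (coagulation and complement) and 10 of 14 (apolipoproteins). Liver transcription factors gave 22 of 28, hepatic transporters 22 of 27 and phase I enzymes of drug metabolism 28 of 37. Phase II enzymes gave 21 of 33 and urea cycle and amino acid genes 19 of 31. For lipid synthesis and storage it was 23 of 46, and for cell cycle 18 of 44. The remaining lists are not given. Whether other cells contributed RNA to these libraries was not tested, and the name HepG2 is used below for the label only.

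**Figure D1:**
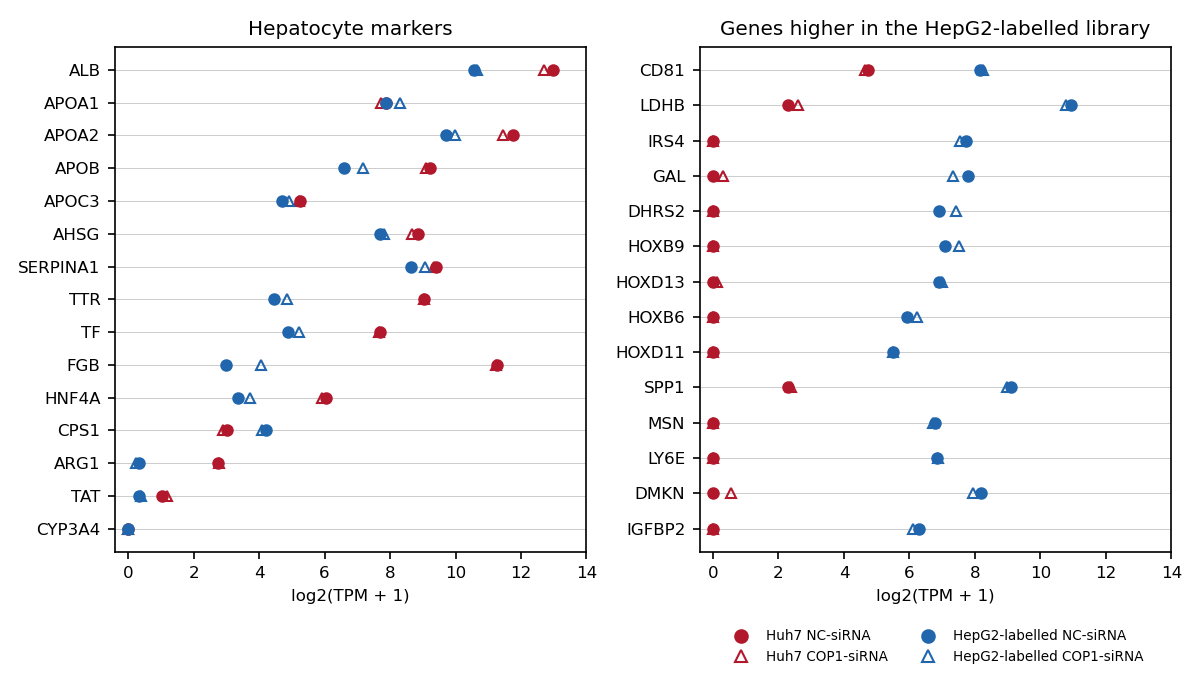
Levels as log2(TPM + 1) of 15 hepatocyte markers (left) and of 14 genes that were higher in the HepG2-labelled NC-siRNA library (right), chosen for display after their values were seen, in each of the 4 libraries. Circles are NC-siRNA and triangles COP1-siRNA libraries, and each point is 1 library. ALB, FGB, TTR and HNF4A lie further right in Huh7, APOA1 lies together in both NC-siRNA libraries, and CD81, LDHB and IRS4 lie further right in the HepG2-labelled libraries.

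Across all genes compared, 2215 (14.7%) were 2-fold or more higher in Huh7 and 4194 (27.9%) were 2-fold or more higher in the HepG2-labelled library, while 8646 differed by less. The median log2 difference was −0.37 with an SD across genes of 1.48, so that more genes lay lower in Huh7 than higher. The 10 highest genes held 13.2% of all TPM in Huh7 and 8.02% in the HepG2-labelled library. Median-of-ratios scaling brought the median of all genes to −0.03 and the numbers past 2-fold to 2919 and 3117, which changed the Huh7 share of these genes from 34.6% to 48.4%, and quantile normalization gave a share of 49.6%. The share of a gene list that was higher in Huh7 is to be read beside 14.7%, the share higher in the HepG2-labelled library beside 27.9%, and a list's median beside −0.37. In the COP1-siRNA pair, 2121 of 15126 genes (14%) were higher in Huh7 and 3937 (26%) in the HepG2-labelled library. Of the genes past 2-fold in the NC-siRNA pair, 1882 (85.0%) of those higher in Huh7 and 3475 (82.9%) of those higher in the HepG2-labelled library were past it in the same direction in the COP1-siRNA pair. The direction was opposite for 10 and 33 genes. Within a line, the SD of the log2 difference between COP1-siRNA and NC-siRNA was 0.28 in Huh7 and 0.26 in the HepG2-labelled libraries, and 120 and 102 genes passed 2-fold.

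**Figure D2:**
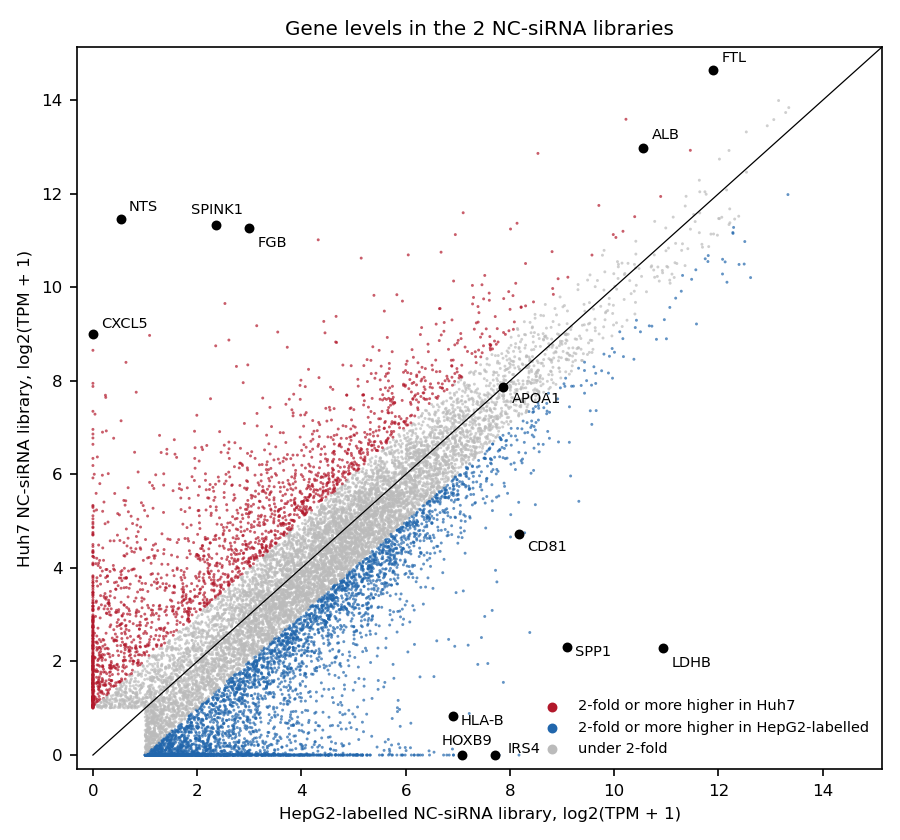
Level of each of the 15055 genes in the HepG2-labelled NC-siRNA library (x axis) and in the Huh7 NC-siRNA library (y axis), both as log2(TPM + 1). Red and blue points are the 2215 and 4194 genes past 2-fold, the line marks equal levels, and named genes are in black. NTS, SPINK1 and FGB lie far above the line and LDHB and SPP1 far below it.

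The largest excess in Huh7 was that of NTS. NTS, the precursor of the gut peptide neurotensin, was at 2796 and 1888 TPM in Huh7 and 0.446 and 0.581 TPM in the HepG2-labelled libraries, a log2 difference of 10.92. CXCL5, a chemokine that attracts neutrophils, was at 513 and 479.6 TPM in Huh7 and was listed at 0 in both HepG2-labelled libraries. SPINK1, a secreted trypsin inhibitor, was at 2583 and 2209.8 TPM in Huh7 and 4.12 and 3.98 TPM in the HepG2-labelled libraries. Both Huh7 libraries were thus far above both HepG2-labelled libraries for each. The lysosomal protease gene CTSZ was at 336 and 270.3 TPM in Huh7 and 0.552 and 0.645 TPM in the HepG2-labelled libraries. TMEM176A and TMEM176B, neighbouring genes of membrane proteins, were at 235 and 246 TPM in Huh7 with NC-siRNA and listed at 0 in the HepG2-labelled library.

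The largest excess in the HepG2-labelled library was that of LDHB, the lactate dehydrogenase subunit of heart type. LDHB was at 3.87 and 5.01 TPM in Huh7 and 1968 and 1743 TPM in the HepG2-labelled libraries, a log2 difference of −8.66. SPP1, the secreted phosphoprotein osteopontin, was at 3.94 and 4.23 TPM in Huh7 and 544 and 509 TPM in the HepG2-labelled libraries. Both Huh7 libraries were thus low for both genes. DHRS2, a mitochondrial reductase, was at 119.8 and 169 TPM in the HepG2-labelled libraries and listed at 0 in both Huh7 libraries. MSN, which links the actin cortex to the membrane, was at 109.6 and 104 TPM there and likewise listed at 0 in Huh7, as was LY6E, a surface protein, against 113 and 116 TPM. DMKN, known from skin, was at 0 and 0.475 TPM in Huh7 and 288 and 245 TPM in the HepG2-labelled libraries. Among the tested genes, 957 were listed at 0 in Huh7 and 311 in the HepG2-labelled library, and no gene listed at 0 in a library reached 5 TPM in the other library of the same line.

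A stricter division counted genes with at least 5 TPM in a line and under 0.1 TPM in the other. There were 122 such genes (0.81%) for Huh7 and 393 (2.61%) for the HepG2-labelled library. Of these, 92 and 324 met the same limits in the COP1-siRNA pair. Long noncoding RNAs made up 25.4% (31 of 122) and 6.36% (25 of 393) of these, beside 6.91% (1040 of 15055) of all genes compared. The X chromosome carried 2.46% (3 of 122) and 12.5% (49 of 393), beside 3.41% (514 of 15055).

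**Figure D3:**
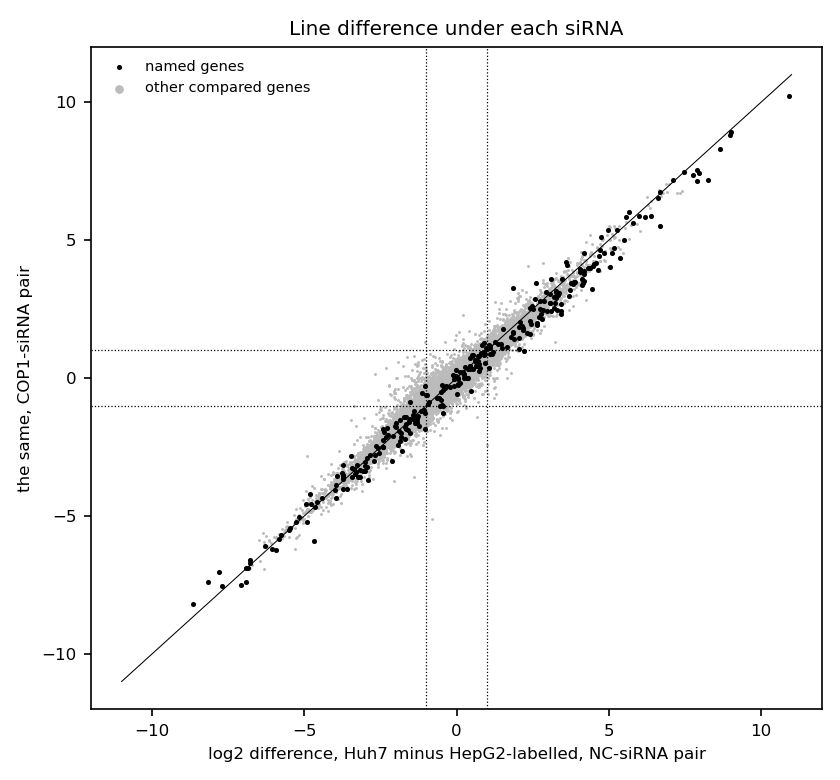
Log2 difference (Huh7 minus HepG2-labelled) of each gene compared in the NC-siRNA pair (x axis) and in the COP1-siRNA pair (y axis), with the genes that the naming rule picks in black, dotted lines at 2-fold and a solid line at equal values. The pairs use different libraries, and 1882 genes on the right and 3475 on the left were past 2-fold in both.

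Plasma proteins were higher in Huh7 as a group. Of the list, 70% (21 of 30) of the genes compared were 2-fold or more higher in Huh7 and 13.3% (4 of 30) in the HepG2-labelled library, beside 14.7% and 27.9% of all genes, with a median log2 difference of 2.24 beside −0.37. GC, the vitamin D binding protein, was at 401 and 355 TPM in Huh7 and 0 and 0.129 TPM in the HepG2-labelled libraries. SERPING1, the inhibitor of the first complement component, was at 501 and 429 TPM in Huh7 and 1.12 and 1.32 TPM in the HepG2-labelled libraries. Both genes were nearly silent in the HepG2-labelled libraries. VTN, the adhesive plasma protein vitronectin, was at 527 and 558 TPM in Huh7 and 10.7 and 16.4 TPM in the HepG2-labelled libraries. HPX, the heme carrier hemopexin, was at 85.8 and 95 TPM in Huh7 and 1.67 and 4.82 TPM in the HepG2-labelled libraries. The exceptions included SERPINA3, the acute-phase antichymotrypsin, at 0.0718 and 0.246 TPM in Huh7 and 47 and 52.4 TPM in the HepG2-labelled libraries. APOH, which binds phospholipids, was at 86.9 and 89.6 TPM in Huh7 and 314 and 359.9 TPM in the HepG2-labelled libraries, also higher in the HepG2-labelled libraries. SERPINA1, the elastase inhibitor of plasma, was at 671 and 642 TPM in Huh7 and 399 and 536 TPM in the HepG2-labelled libraries and stayed under 2-fold.

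Coagulation and complement genes had 65.7% (23 of 35) higher in Huh7 and 14.3% (5 of 35) in the HepG2-labelled library, with a median of 1.92 beside −0.37. All 3 fibrinogen chains were part of this, with FGA at 2068 and 1934 TPM in Huh7 and 19 and 41.5 TPM in the HepG2-labelled libraries, FGG, chosen after its values were seen, at 1577 and 1674 TPM in Huh7 and 34.4 and 71.7 TPM in the HepG2-labelled libraries, and FGB as above. C5, a late complement component, was at 429 and 360.1 TPM in Huh7 and 4.12 and 5.11 TPM in the HepG2-labelled libraries. The exceptions included PLAT, the tissue plasminogen activator, at 1.02 and 1.29 TPM in Huh7 and 56.3 and 40.9 TPM in the HepG2-labelled libraries. SERPINC1, the thrombin inhibitor, was another, at 3.99 and 4.91 TPM in Huh7 and 15.3 and 26.6 TPM in the HepG2-labelled libraries. The summed level of the list was 8489 and 8177 TPM in Huh7 and 473 and 632 TPM in the HepG2-labelled libraries, 17.9 times as high in Huh7 with NC-siRNA.

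Apolipoprotein genes had a median log2 difference of 1.06 beside −0.37, with 50% (7 of 14) higher in Huh7 and 14.3% (2 of 14) in the HepG2-labelled library. APOE, a ligand of lipoprotein receptors, was at 2427 and 1929.9 TPM in Huh7 and 257 and 289 TPM in the HepG2-labelled libraries. APOC2, the cofactor of lipoprotein lipase, was at 833 and 683 TPM in Huh7 and 60.3 and 62.1 TPM in the HepG2-labelled libraries. MTTP, which loads lipid onto APOB, was at 51.2 and 43.5 TPM in Huh7 and 6.51 and 9.23 TPM in the HepG2-labelled libraries, and APOB itself was at 592 and 547 TPM in Huh7 and 95 and 142 TPM in the HepG2-labelled libraries. Both were higher in Huh7. APOA5, a regulator of triglyceride, was listed at 0 in Huh7 with NC-siRNA and was at 4.03 and 3.66 TPM in the HepG2-labelled libraries, and APOL1 was at 0.174 and 0.37 TPM in Huh7 and 3.44 and 6.3 TPM in the HepG2-labelled libraries.

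The transcription factors of the liver network were also higher in Huh7, where 67.9% (19 of 28) passed 2-fold against 10.7% (3 of 28) in the HepG2-labelled library, and their median was 2.34 beside −0.37. FOXA2, a pioneer factor of endoderm, was at 80.1 and 61.3 TPM in Huh7 and 2.87 and 2.92 TPM in the HepG2-labelled libraries. NR5A2, which controls bile acid synthesis genes, was at 33.5 and 27.6 TPM in Huh7 and 1.07 and 1.02 TPM in the HepG2-labelled libraries. NR1H4, the bile acid receptor, was at 93.2 and 77.3 TPM in Huh7 and 6.11 and 7.57 TPM in the HepG2-labelled libraries. NR0B2, a repressor that NR1H4 is known to induce, was higher in the HepG2-labelled libraries, at 5.8 and 3.01 TPM in Huh7 and 22.5 and 23.8 TPM in the HepG2-labelled libraries. The receptor and its target were thus opposed. CEBPA was at 169 and 122 TPM in Huh7 and 23.7 and 23.7 TPM in the HepG2-labelled libraries. The progenitor factor SOX4 stayed under 2-fold, at 67 and 54.4 TPM in Huh7 and 40.5 and 35.5 TPM in the HepG2-labelled libraries.

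**Figure D4:**
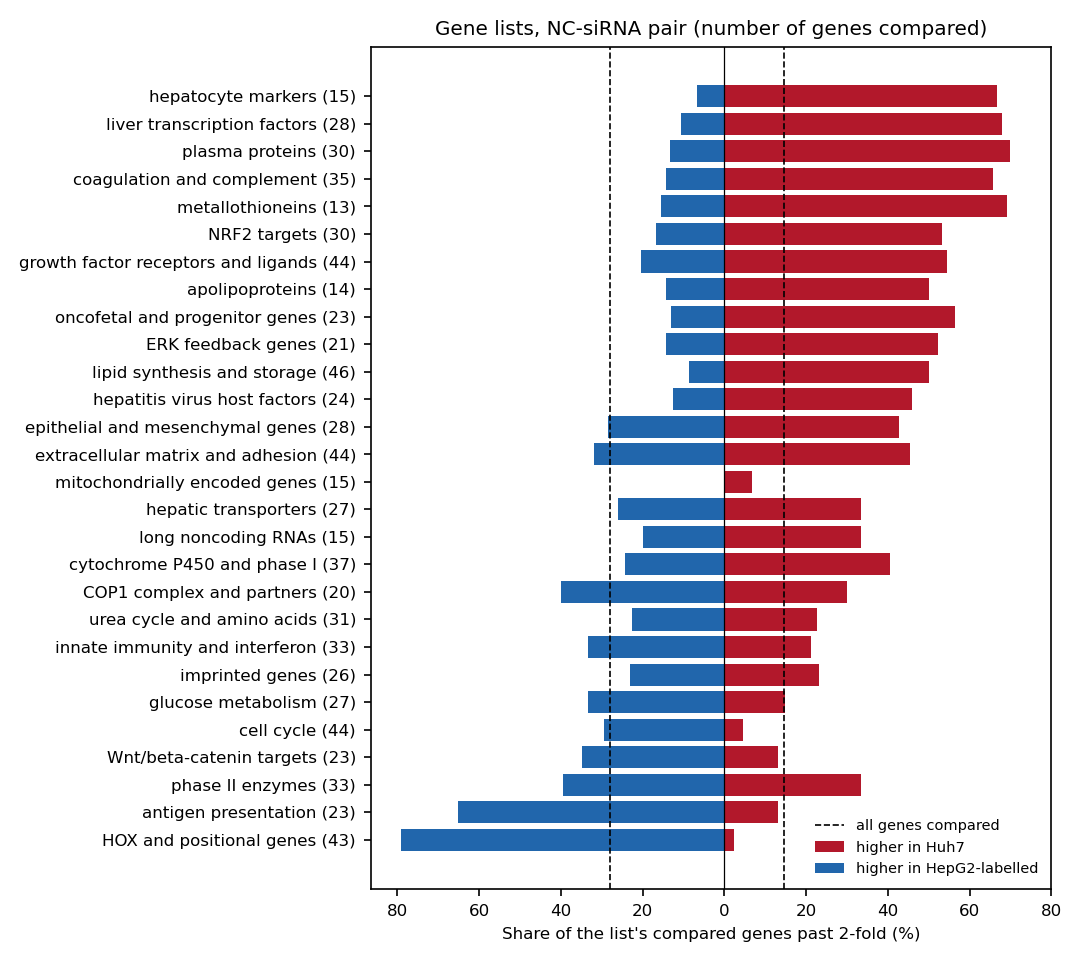
Share of the compared genes of each list shown, with at least 10 genes compared, that were 2-fold or more higher in Huh7 (red, right) or in the HepG2-labelled library (blue, left) in the NC-siRNA pair, ordered by the list's median log2 difference, with the number of genes compared in brackets. Dashed lines mark the shares over all genes, 14.7% and 27.9%. Plasma proteins, metallothioneins and liver transcription factors have the longest red bars, and HOX and antigen presentation genes the longest blue bars.

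The start regions of these genes were read from RefSeq (GRCh38.p14), which holds 300 bases per gene, 250 before and 50 after the start. To show what lies in front of liver genes that were higher in Huh7 and in front of genes of the other direction, the 150 bases before the start are printed for FGA (chr4:154590743-154590892, minus strand), FGB (chr4:154562830-154562979, plus strand), FGG (chr4:154612657-154612806, minus strand), ALB (chr4:73404137-73404286, plus strand) and AFP (chr4:73436071-73436220, plus strand), and for LDHB (chr12:21657843-21657992, minus strand), MSN (chrX:65588227-65588376, plus strand) and IRS4 (chrX:108736564-108736713, minus strand). AFP was chosen after its values were seen. Capitals in the first 5 mark the motif TTGCNNAA of C/EBP proteins on either strand, or the TATA box, which was searched as TATAAA on either strand. Capitals in the last 3 mark pairs of C followed by G, called CpG. The marked motifs do not overlap in these windows.
FGA: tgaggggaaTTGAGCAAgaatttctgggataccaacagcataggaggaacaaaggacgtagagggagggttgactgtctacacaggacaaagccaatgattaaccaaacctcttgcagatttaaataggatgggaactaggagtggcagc
FGB: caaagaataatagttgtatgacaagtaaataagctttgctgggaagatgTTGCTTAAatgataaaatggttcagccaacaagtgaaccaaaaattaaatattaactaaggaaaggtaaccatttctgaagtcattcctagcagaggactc
FGG: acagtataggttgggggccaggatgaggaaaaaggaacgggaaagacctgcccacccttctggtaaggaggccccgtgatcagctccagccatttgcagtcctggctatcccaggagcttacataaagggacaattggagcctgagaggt
ALB: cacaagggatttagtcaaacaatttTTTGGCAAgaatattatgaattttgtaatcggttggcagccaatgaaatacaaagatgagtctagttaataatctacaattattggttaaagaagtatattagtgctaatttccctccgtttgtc
AFP: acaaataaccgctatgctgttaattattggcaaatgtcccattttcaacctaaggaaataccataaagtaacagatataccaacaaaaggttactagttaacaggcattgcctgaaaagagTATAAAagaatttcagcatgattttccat
LDHB: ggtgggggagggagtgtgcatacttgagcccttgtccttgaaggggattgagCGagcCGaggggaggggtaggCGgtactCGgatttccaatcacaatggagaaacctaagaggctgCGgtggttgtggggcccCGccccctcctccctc
MSN: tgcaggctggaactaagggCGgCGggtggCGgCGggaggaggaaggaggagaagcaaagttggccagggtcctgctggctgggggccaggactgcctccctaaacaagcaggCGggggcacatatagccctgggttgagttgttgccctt
IRS4: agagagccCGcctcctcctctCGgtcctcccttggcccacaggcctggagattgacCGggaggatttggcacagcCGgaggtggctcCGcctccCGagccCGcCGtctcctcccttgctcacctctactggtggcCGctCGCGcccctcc

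The C/EBP motif stood within the 150 bases of FGA, FGB and ALB, and the TATA box within those of AFP, while FGG held neither. Over the 300 bases AFP also held the C/EBP motif, and FGG still held neither. The 300 bases of NTS, CXCL5 and SPINK1, also higher in Huh7, held neither motif, and those of LDHB held TATAAA. Over the 300 bases, TTGCNNAA was found on either strand in 40% of 20 plasma protein promoters and 17.9% of 28 coagulation and complement promoters, beside 7.02% of the 10556 promoters found for protein-coding genes of the comparison and 10.6% of all 27305 promoters. Among all genes higher in Huh7, however, it was found in 8.2% of 1500 promoters, beside 7.41% of 2792 promoters of genes higher in the HepG2-labelled library. TATAAA was found in 20% of the plasma protein promoters, 5.77% of those of protein-coding genes compared, and 9.33% and 6.48% of those of genes higher in Huh7 and in the HepG2-labelled library. CpG pairs were sparse in front of the liver genes. The ratio of observed to expected CpG had a median of 0.287 in plasma protein promoters, 0.843 in all protein-coding genes compared and 0.873 in the 20 HOX and positional gene promoters found. The ratio was 0.693 in IRS4, 0.549 in LDHB and 0.289 in MSN, so that the genes higher in the HepG2-labelled library differed among themselves. These matches describe letters and no binding.

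Oncofetal and progenitor genes had 56.5% (13 of 23) higher in Huh7 and 13% (3 of 23) in the HepG2-labelled library, with a median of 1.04 beside −0.37. AFP, the albumin of the fetus, was at 7444 and 6906 TPM in Huh7 and 370.3 and 399 TPM in the HepG2-labelled libraries. CD24, a surface glycoprotein of progenitors, was at 804 and 693 TPM in Huh7 and 4.78 and 3.74 TPM in the HepG2-labelled libraries. PROM1, the stem cell marker CD133, was at 63.1 and 63.8 TPM in Huh7 and 0.0178 and 0.108 TPM in the HepG2-labelled libraries, and CD44, the hyaluronan receptor, was at 54.8 and 72 TPM in Huh7 and 0.0961 and 0.128 TPM in the HepG2-labelled libraries. All of these were near 0 or many-fold lower in the HepG2-labelled libraries. PEG3, an imprinted gene, was listed at 0 in both Huh7 libraries and was at 9.11 and 10.1 TPM in the others. AKR1B10, an aldo-keto reductase of liver tumours, was at 14.3 and 11.5 TPM in Huh7 and 53.2 and 54 TPM in the HepG2-labelled libraries. MDK, a growth factor, stayed under 2-fold with 341 against 216 TPM in the NC-siRNA libraries.

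Genes of lipid synthesis and storage had 50% (23 of 46) higher in Huh7 and 8.7% (4 of 46) in the HepG2-labelled library, with a median of 0.97 beside −0.37. FADS2, a fatty acid desaturase, was at 617 and 507 TPM in Huh7 and 20.5 and 21 TPM in the HepG2-labelled libraries. PLIN2, a coat protein of lipid droplets, was at 486 and 490.3 TPM in Huh7 and 49.1 and 61.5 TPM in the HepG2-labelled libraries. These genes were higher in both Huh7 libraries than in both others. HMGCS1, an early enzyme of cholesterol synthesis, was at 349.7 and 279 TPM in Huh7 and 37.3 and 35.2 TPM in the HepG2-labelled libraries. The other direction was taken by SCD5, a desaturase, at 0.1 and 0.224 TPM in Huh7 and 13.8 and 12.4 TPM in the HepG2-labelled libraries, and by MLXIPL, which encodes the glucose-responsive factor ChREBP, at 1.12 and 1.14 TPM in Huh7 and 5.79 and 6.38 TPM in the HepG2-labelled libraries. ACLY, the source of cytosolic acetyl-CoA, was at 221 against 256 TPM and stayed under 2-fold.

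Enzymes of drug metabolism differed in both directions. For phase I, 40.5% (15 of 37) were higher in Huh7, beside 14.7% of all genes. In the HepG2-labelled library 24.3% (9 of 37) were higher, beside 27.9% of all genes. ALDH1A1, a retinal dehydrogenase, was at 1653 and 1442 TPM in Huh7 and 65.2 and 95.2 TPM in the HepG2-labelled libraries. CYP2B6, a drug-metabolizing P450, was at 19 and 15.8 TPM in Huh7 and 0 and 0.0555 TPM in the HepG2-labelled libraries. CES1, a liver carboxylesterase, was at 0.967 and 1.62 TPM in Huh7 and 58 and 97.7 TPM in the HepG2-labelled libraries. For phase II, the shares were 33.3% (11 of 33) and 39.4% (13 of 33), and the median of −0.63 turned to 0.29 under median-of-ratios scaling, so no direction is given. UGT2B4, which conjugates bile acids, was at 87.5 and 69.2 TPM in Huh7 and 1.48 and 1.69 TPM in the HepG2-labelled libraries, and NNMT, a nicotinamide methyltransferase, was at 30.5 and 40.4 TPM in Huh7 and listed at 0 in the HepG2-labelled libraries. GSTA1, a glutathione transferase, was at 1.25 and 0.731 TPM in Huh7 and 56.9 and 102 TPM in the HepG2-labelled libraries. GSTA1 and its near copy GSTA2 can share reads, as can members of the UGT2B family, so their single values are uncertain.

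Transporters of the hepatocyte membrane had 33.3% (9 of 27) higher in Huh7, beside 14.7% of all genes. In the HepG2-labelled library it was 25.9% (7 of 27), beside 27.9%. SLC22A9, an organic anion transporter, was at 62.2 and 56.1 TPM in Huh7 and 0.134 and 0.153 TPM in the HepG2-labelled libraries. SLC38A4, an amino acid transporter, was at 30.6 and 21.9 TPM in Huh7 and 0.222 and 0.0651 TPM in the HepG2-labelled libraries. Glucose transporters lay the other way, with SLC2A1 at 17.4 and 15.7 TPM in Huh7 and 46.2 and 51.2 TPM in the HepG2-labelled libraries, SLC2A3 at 0.0241 and 0.0836 TPM in Huh7 and 6.63 and 13.1 TPM in the HepG2-labelled libraries, and SLC2A2, the transporter of adult liver, at 0.248 and 0.346 TPM in Huh7 and 2.37 and 2.39 TPM in the HepG2-labelled libraries.

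Urea cycle and amino acid genes had 22.6% (7 of 31) in each direction, beside 14.7% (Huh7) and 27.9% (HepG2-labelled) of all genes. HGD, of tyrosine breakdown, was at 194 and 184 TPM in Huh7 and 12.6 and 16.4 TPM in the HepG2-labelled libraries, whereas HPD, which acts just before it in the same pathway, was at 0.53 and 1.2 TPM in Huh7 and 58.5 and 80.8 TPM in the HepG2-labelled libraries. ASL and ASS1, consecutive enzymes of the urea cycle, were also opposed, with ASL at 61.8 and 65.1 TPM in Huh7 and 13.7 and 15 TPM in the HepG2-labelled libraries and ASS1 at 32.2 and 38.2 TPM in Huh7 and 86.9 and 89.2 TPM in the HepG2-labelled libraries. ARG1, the last enzyme of the cycle, was at 5.69 and 5.8 TPM in Huh7 and 0.254 and 0.174 TPM in the HepG2-labelled libraries. MAT1A, the adult methionine adenosyltransferase, was at 0.761 and 1.48 TPM in Huh7 and 10.3 and 16.1 TPM in the HepG2-labelled libraries. PSAT1, an enzyme of serine synthesis, was at 307 against 224 TPM and stayed under 2-fold.

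In glucose metabolism, 14.8% (4 of 27) were higher in Huh7 and 33.3% (9 of 27) in the HepG2-labelled library, near the 14.7% and 27.9% of all genes, and the median of −0.29 turned to 0.05 under median-of-ratios scaling. The isoenzymes differed more than the pathway. HK1, a hexokinase of most tissues, was at 0.118 and 0.138 TPM in Huh7 and 62.6 and 64.2 TPM in the HepG2-labelled libraries, and HK2, the inducible form, was at 75.5 and 60.8 TPM in Huh7 and 28.5 and 25.1 TPM in the HepG2-labelled libraries. PFKP, the platelet form of phosphofructokinase, was at 0.321 and 0.464 TPM in Huh7 and 39.7 and 33.3 TPM in the HepG2-labelled libraries. PC, the pyruvate carboxylase of gluconeogenesis, was at 209 and 149 TPM in Huh7 and 13.4 and 12.6 TPM in the HepG2-labelled libraries. GAPDH was at 6841 against 4147 TPM and ENO1 at 3009.7 against 2943 TPM in the NC-siRNA libraries, both under 2-fold. Both lines thus expressed GAPDH and ENO1 at high levels, and the genes past 2-fold included LDHB, HK1, HK2, PFKP and PC.

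Growth factors and their receptors had 54.5% (24 of 44) higher in Huh7 and 20.5% (9 of 44) in the HepG2-labelled library, with a median of 1.09 beside −0.37. EGFR was at 60.8 and 54.6 TPM in Huh7 and 2.73 and 2.64 TPM in the HepG2-labelled libraries. AREG, which encodes a ligand of EGFR, was at 65.2 and 51.5 TPM in Huh7 and 5.08 and 7.24 TPM in the HepG2-labelled libraries. BMP2, a bone morphogenetic protein, was at 81.4 and 84.8 TPM in Huh7 and 2.04 and 1.48 TPM in the HepG2-labelled libraries. The HepG2-labelled libraries had instead IGFBP2, an insulin-like growth factor binding protein, at 76.8 and 67.4 TPM, BMP7 at 26.4 and 23 TPM, FGFR2 at 14.7 and 13.7 TPM and KIT at 9.22 and 8.95 TPM. All 4 of these were listed at 0 in both Huh7 libraries. ERBB2 was close in both lines, at 18.3 against 17.7 TPM.

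The list of ERK pathway genes held feedback genes that ERK activity is known to induce, and also RAS genes such as NRAS. Of this list, 52.4% (11 of 21) were higher in Huh7 and 14.3% (3 of 21) in the HepG2-labelled library, with a median of 1.03 beside −0.37. DUSP6, a phosphatase of ERK, was at 54.5 and 32 TPM in Huh7 and 2.17 and 2.16 TPM in the HepG2-labelled libraries, and DUSP4, a related phosphatase, was at 20 and 16.3 TPM in Huh7 and 1.2 and 1.01 TPM in the HepG2-labelled libraries. CCND1, which encodes cyclin D1, was at 154 and 132 TPM in Huh7 and 15.7 and 22 TPM in the HepG2-labelled libraries. The early response factor EGR1 lay the other way, at 1.78 and 1.19 TPM in Huh7 and 35.8 and 24.2 TPM in the HepG2-labelled libraries. NRAS, the RAS gene in which HepG2 is known to carry a mutation, was at 101 against 103 TPM.

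HepG2 is known for a stabilised form of beta-catenin, the effector of the Wnt pathway. Of the targets of this pathway, 13% (3 of 23) were higher in Huh7 and 34.8% (8 of 23) in the HepG2-labelled library, near the 14.7% and 27.9% of all genes. LEF1, a partner of beta-catenin, was at 0.0911 and 0.161 TPM in Huh7 and 22.6 and 22.9 TPM in the HepG2-labelled libraries. NOTUM and NKD1, which dampen the pathway, were at 0.604 and 0.461 TPM in Huh7 and 12.4 and 14.2 TPM in the HepG2-labelled libraries and at 0.0669 and 0.0334 TPM in Huh7 and 3.51 and 3.46 TPM in the HepG2-labelled libraries. FGF19, a bile acid hormone, lay the other way, at 8.73 and 4.57 TPM in Huh7 and listed at 0 in the HepG2-labelled libraries. CTNNB1 itself was at 371 against 318 TPM, and GLUL, the glutamine synthetase of hepatocytes around the central vein, was at 154 against 129.6 TPM. The median of −0.43 was near that of all genes and turned to 0.13 under quantile normalization.

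Targets of NRF2, the regulator of the antioxidant response, had 53.3% (16 of 30) higher in Huh7 and 16.7% (5 of 30) in the HepG2-labelled library, with a median of 1.16 beside −0.37. The ferritin chains were among the highest RNAs of Huh7. FTL, the light chain, was at 25469.8 and 24141 TPM in Huh7 and 3831 and 4301 TPM in the HepG2-labelled libraries, and FTH1, the heavy chain, was at 12344 and 11301 TPM in Huh7 and 1196 and 1344 TPM in the HepG2-labelled libraries. Together they held 3.78% of all TPM in Huh7 with NC-siRNA and 0.503% in the HepG2-labelled library. NQO1, a quinone reductase, was at 504 and 350.2 TPM in Huh7 and 102 and 111 TPM in the HepG2-labelled libraries. AKR1C2, of the aldo-keto reductases, was at 718 and 514 TPM in Huh7 and 47.2 and 45.3 TPM in the HepG2-labelled libraries, although near-identical AKR1C genes can share its reads. CBR3 and CBR1, carbonyl reductases that neighbour each other on chromosome 21, were higher in the HepG2-labelled libraries, with 0.329 against 13.8 TPM and 63.4 against 212 TPM in the NC-siRNA libraries.

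Metallothioneins, which bind zinc and copper, were mostly higher in Huh7, with 69.2% (9 of 13) against 15.4% (2 of 13) in the HepG2-labelled library. MT1E was at 141 and 227 TPM in Huh7 and 17.6 and 25.5 TPM in the HepG2-labelled libraries and MT1F at 63 and 87 TPM in Huh7 and 4.87 and 6.38 TPM in the HepG2-labelled libraries. MT1G went the other way, at 2.06 and 2.38 TPM in Huh7 and 8.02 and 8.87 TPM in the HepG2-labelled libraries. These genes are close copies, so the division of reads among them is uncertain. SLC39A4, a zinc importer on the same list, was listed at 0 in both Huh7 libraries and was at 34.8 and 32.2 TPM in the HepG2-labelled libraries.

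Antigen presentation genes were higher in the HepG2-labelled library, with 65.2% (15 of 23) there and 13% (3 of 23) in Huh7, and a median of −1.52 beside −0.37. HLA-B was at 0.779 and 0.66 TPM in Huh7 and 118 and 120.0 TPM in the HepG2-labelled libraries, and HLA-C at 5.15 and 5.62 TPM in Huh7 and 332 and 339 TPM in the HepG2-labelled libraries. TAP1, a subunit of the peptide transporter, was at 0.619 and 1.16 TPM in Huh7 and 16.6 and 19.6 TPM in the HepG2-labelled libraries. B2M, the light chain that pairs with class I molecules, was higher in Huh7, at 1161 and 1224 TPM in Huh7 and 485 and 496 TPM in the HepG2-labelled libraries. ERAP1, which trims peptides, was also higher in Huh7, at 26.8 and 24.6 TPM in Huh7 and 5.14 and 6.24 TPM in the HepG2-labelled libraries. The heavy chains and the light chain were thus opposed. HLA genes vary between people, and reads of divergent alleles can be lost against the reference.

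Of the genes of innate immunity, 21.2% (7 of 33) were higher in Huh7 and 33.3% (11 of 33) in the HepG2-labelled library, beside 14.7% and 27.9% of all genes. GBP2, a guanylate-binding protein, was at 35.8 and 38.2 TPM in Huh7 and 0.602 and 1.23 TPM in the HepG2-labelled libraries, and MX2, an antiviral GTPase, was at 69.1 and 84.2 TPM in Huh7 and 2.89 and 5.26 TPM in the HepG2-labelled libraries. BST2, which tethers virus particles, was listed at 0 in both Huh7 libraries and was at 14.6 and 19.6 TPM in the others. IFITM1, a block to virus entry, was at 0.752 and 0.531 TPM in Huh7 and 22.1 and 18.2 TPM in the HepG2-labelled libraries. These known interferon-induced genes differed in both directions.

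Host factors of hepatitis viruses had 45.8% (11 of 24) higher in Huh7, beside 14.7% of all genes. In the HepG2-labelled library it was 12.5% (3 of 24), beside 27.9%. CLDN1, a tight junction protein and entry factor, was at 323 and 298 TPM in Huh7 and 6.84 and 13.6 TPM in the HepG2-labelled libraries. CLDN6, a related claudin, was at 157 and 158 TPM in Huh7 and 7.86 and 13.7 TPM in the HepG2-labelled libraries. CD81 lay the other way, as described. PPIA, a cyclophilin, was at 2465 against 2031 TPM and stayed under 2-fold.

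Epithelial and mesenchymal genes had 42.9% (12 of 28) higher in Huh7, beside 14.7% of all genes. In the HepG2-labelled library it was 28.6% (8 of 28), beside 27.9%. The keratins of simple epithelia were higher in Huh7, with KRT8 at 3088 and 3384 TPM in Huh7 and 136 and 202 TPM in the HepG2-labelled libraries and its partner KRT18 at 2234 and 2433 TPM in Huh7 and 123 and 163 TPM in the HepG2-labelled libraries. The mesenchymal factors TWIST1, SNAI2 and TWIST2 were at 14.2, 8.85 and 6.18 TPM in the HepG2-labelled NC-siRNA library and listed at 0 in that of Huh7. VIM, the intermediate filament of mesenchymal cells, was at 496 and 677 TPM in Huh7 and 645 and 878 TPM in the HepG2-labelled libraries, and CDH2, which encodes N-cadherin, was at 62.2 and 77.6 TPM in Huh7 and 31.6 and 36.2 TPM in the HepG2-labelled libraries. VIM stayed under 2-fold in both pairs, and CDH2 had a log2 difference of 0.95 with NC-siRNA and 1.08 with COP1-siRNA.

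Genes of extracellular matrix and adhesion had 45.5% (20 of 44) higher in Huh7, beside 14.7% of all genes. In the HepG2-labelled library it was 31.8% (14 of 44), beside 27.9%. LUM, the proteoglycan lumican, was at 121 and 121 TPM in Huh7 and 0.194 and 0.153 TPM in the HepG2-labelled libraries. COL5A2, a fibrillar collagen chain, was at 141 and 125 TPM in Huh7 and 0.454 and 0.364 TPM in the HepG2-labelled libraries. TGFBI, an adhesion protein, was at 454 and 457 TPM in Huh7 and 24.2 and 38.8 TPM in the HepG2-labelled libraries. The basement membrane chain COL4A2 lay the other way, at 0.00805 and 0.0265 TPM in Huh7 and 24.2 and 24.9 TPM in the HepG2-labelled libraries, and COL6A2 was listed at 0 in both Huh7 libraries against 12.4 and 7.9 TPM. COL18A1, another collagen chain, was at 64 and 49.7 TPM in Huh7 and 37 and 38.1 TPM in the HepG2-labelled libraries and stayed under 2-fold.

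HOX genes are arranged in clusters in the genome. Of the HOX and positional gene list, 79.1% (34 of 43) were higher in the HepG2-labelled library and 2.33% (1 of 43) in Huh7, with a median of −2.71 beside −0.37. The 39 HOX genes together came to 112 and 136 TPM in Huh7 and to 1225 and 1277 TPM in the HepG2-labelled libraries. In Huh7, all 10 genes of the HOXB cluster on chromosome 17 were listed at 0 with NC-siRNA, and 8 of 9 genes of the HOXD cluster on chromosome 2. HOXB9 was at 135 and 180.3 TPM in the HepG2-labelled libraries, HOXB6 at 60.2 and 73.8 TPM, HOXD13 at 119.7 and 127 TPM and HOXD11 at 44.1 and 44.1 TPM. The HOXA and HOXC clusters were expressed in both lines. Their genes summed to 55.0 and 56.9 TPM in Huh7 and to 502 and 184 TPM in the HepG2-labelled NC-siRNA library. Among them HOXC10 was at 29.4 and 35 TPM in Huh7 and 31.7 and 32.4 TPM in the HepG2-labelled libraries and did not separate the lines. HOXA-AS2, a noncoding RNA of the HOXA cluster, was the member higher in Huh7, at 6.53 and 7.98 TPM in Huh7 and 2.56 and 3.18 TPM in the HepG2-labelled libraries, and HOTAIR, a noncoding RNA of the HOXC cluster, was at 0.412 and 0.312 TPM in Huh7 and 7.38 and 6.66 TPM in the HepG2-labelled libraries.

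Among cell cycle genes, 4.55% (2 of 44) were higher in Huh7, beside 14.7% of all genes, and 29.5% (13 of 44) in the HepG2-labelled library, beside 27.9%. CDKN2A, which encodes p16 and ARF, was at 108 and 105 TPM in Huh7 and 432 and 359.9 TPM in the HepG2-labelled libraries. CDKN2B, its neighbour, was at 27.2 and 24.7 TPM in Huh7 and 5.87 and 6.09 TPM in the HepG2-labelled libraries. CCND2, which encodes cyclin D2, was listed at 0 in both Huh7 libraries and was at 8.51 and 10.9 TPM in the others, opposite to CCND1. PCNA, the sliding clamp of replication, was at 386 against 599.7 TPM and CDK4 at 325 against 303 TPM.

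Ribosomal and mitochondrial RNAs took different shares of the libraries. Cytosolic ribosomal protein genes held 11.1% of TPM in Huh7 and 20.6% in the HepG2-labelled library with NC-siRNA, and 11.2% and 20.5% with COP1-siRNA. Of 82 such genes 31 were 2-fold or more higher in the HepG2-labelled library, beside 27.9% of all genes. In Huh7 1 of the 82 was higher, beside 14.7% of all genes. The median of the 82 genes was −0.84 beside −0.37. RPS2 was at 4043 and 3855 TPM in Huh7 and 10313 and 10124 TPM in the HepG2-labelled libraries, and RPL39 at 1181 and 1233 TPM in Huh7 and 6275 and 7046 TPM in the HepG2-labelled libraries, and both have processed copies that can take or lend reads. All genes of the mitochondrial genome, transfer RNA genes included, held 11.4% of TPM in Huh7 and 7.81% in the HepG2-labelled library. The 15 genes for proteins and ribosomal RNAs summed to 111422 and 134279 TPM in Huh7 and 75254 and 77680.3 TPM in the HepG2-labelled libraries. Of these 15 genes 1 passed 2-fold with NC-siRNA, ND5, a subunit of complex I, at 3932 and 4724 TPM in Huh7 and 1898 and 2083 TPM in the HepG2-labelled libraries. EEF1A1, the elongation factor, was at 5636 against 5944 TPM.

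Small nucleolar RNAs were lower in Huh7, with a median log2 difference of −1.22 beside −0.37. Of 188 genes 113 were higher in the HepG2-labelled library and 4 in Huh7, beside 27.9% and 14.7% of all genes. Most small nucleolar RNAs lie in introns of other genes and are short, so that their values from poly(A) libraries are uncertain. GAS5, which hosts such RNAs, was at 66.9 and 71.8 TPM in Huh7 and 349 and 279 TPM in the HepG2-labelled libraries. Of all 1040 long noncoding RNAs compared, 235 were higher in Huh7 and 369 in the HepG2-labelled library, with a median of −0.51 beside −0.37. In the shorter list of long noncoding RNAs, 33.3% (5 of 15) were higher in Huh7, beside 14.7% of all genes. In the HepG2-labelled library it was 20% (3 of 15), beside 27.9%. HULC was at 153 and 153 TPM in Huh7 and 2.98 and 2.75 TPM in the HepG2-labelled libraries, LINC01419 at 72 and 62.3 TPM in Huh7 and 0 and 0.11 TPM in the HepG2-labelled libraries and UCA1 at 27.5 and 34.4 TPM in Huh7 and 0.56 and 0.548 TPM in the HepG2-labelled libraries. The HepG2-labelled libraries were thus low for each. HOTAIR, MIR17HG and GAS5 lay the other way, with MIR17HG at 1.16 and 0.781 TPM in Huh7 and 3.49 and 5.46 TPM in the HepG2-labelled libraries, while DANCR was at 231 against 145 TPM and SNHG1 at 115 against 118 TPM in the NC-siRNA libraries.

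Imprinted genes had 23.1% (6 of 26) in each direction, beside 14.7% (Huh7) and 27.9% (HepG2-labelled) of all genes. IGF2, the fetal growth factor, was at 346 and 206 TPM in Huh7 and 39.3 and 37 TPM in the HepG2-labelled libraries, and PHLDA2, a growth-restricting gene of placenta, was at 54.7 and 52.3 TPM in Huh7 and 4.75 and 4.99 TPM in the HepG2-labelled libraries. SNRPN was listed at 0 in both Huh7 libraries and was at 12.2 and 15.1 TPM in the others, and it shares its transcript with SNURF. Of 51 cancer-testis genes 6 reached 1 TPM. BRDT, a testis bromodomain protein, was at 25.2 and 24 TPM in Huh7 and listed at 0 in the HepG2-labelled libraries. PRAME lay the other way, at 1.54 and 1.75 TPM in Huh7 and 18.5 and 19.4 TPM in the HepG2-labelled libraries.

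COP1 itself was at 19.7 and 6.18 TPM in Huh7 and 26.9 and 16.1 TPM in the HepG2-labelled libraries. The NC-siRNA libraries thus started from similar levels, with a log2 difference of −0.43, and COP1 was lower with COP1-siRNA in each line. Of the partners of COP1, 30% (6 of 20) were higher in Huh7 and 40% (8 of 20) in the HepG2-labelled library, beside 14.7% and 27.9% of all genes. DET1, a subunit of the COP1 complex, was at 0.156 and 0.037 TPM in Huh7 and 7.98 and 8.63 TPM in the HepG2-labelled libraries. TRIB3 and TRIB2, adaptors that bring substrates to COP1, were at 129 and 129 TPM in Huh7 and 27.9 and 38 TPM in the HepG2-labelled libraries and at 0.0171 and 0 TPM in Huh7 and 2 and 2.01 TPM in the HepG2-labelled libraries. ETV1, a substrate, was at 11.7 and 8.4 TPM in Huh7 and 1.34 and 1.44 TPM in the HepG2-labelled libraries. The scaffold DDB1 was at 398 against 245 TPM and CUL4A at 43.6 against 31.7 TPM, both under 2-fold.

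Markers of other liver cell types reached 1 TPM in part. Of 12 endothelial markers 1 reached 1 TPM, PECAM1, at 5.08 and 7.36 TPM in Huh7 and 0.0215 and 0.135 TPM in the HepG2-labelled libraries. Of 15 leukocyte and Kupffer cell markers 4 did, and LYZ, which encodes lysozyme, was at 145 and 119 TPM in Huh7 and 192 and 149 TPM in the HepG2-labelled libraries. Of 13 stellate and fibroblast markers 6 did, with ACTA2, the actin of smooth muscle, listed at 0 in both Huh7 libraries and at 11.1 and 15.4 TPM in the others. The summed level of stellate markers was 130.3 and 130.4 TPM in Huh7 and 24.4 and 32.5 TPM in the HepG2-labelled libraries, most of it LUM in Huh7. Of 12 cholangiocyte markers 7 did, with 57.1% (4 of 7) higher in Huh7, beside 14.7% of all genes. KRT19, a keratin of bile ducts, was at 199.7 and 207 TPM in Huh7 and 53.2 and 76.1 TPM in the HepG2-labelled libraries, and EPCAM, an adhesion molecule of epithelia, was at 18.6 and 15.2 TPM in Huh7 and 26.3 and 31 TPM in the HepG2-labelled libraries. The summed level of cholangiocyte markers was 567 and 561 TPM in Huh7 and 193 and 243 TPM in the HepG2-labelled libraries.

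By position, protein-coding genes of the X chromosome stood lowest in Huh7, with a median log2 difference of −1.23 beside −0.34 for all protein-coding genes compared. On X, 58.1% (255 of 439) were higher in the HepG2-labelled library and 10.5% (46 of 439) in Huh7. Over all protein-coding genes compared, the numbers were 3478 and 1870 of 12831. Chromosome 21 followed with a median of −1.03, with 51.1% (69 of 135) higher in the HepG2-labelled library and 6.67% (9 of 135) in Huh7. At the other end were chromosome 18 with 0.19 and chromosome 20 with 0.15, and the mitochondrial genome with 0.57. In the COP1-siRNA pair the medians were −1.19 for X, −1.02 for chromosome 21, 0.14 for chromosome 18 and 0.08 for chromosome 20.

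**Figure D5:**
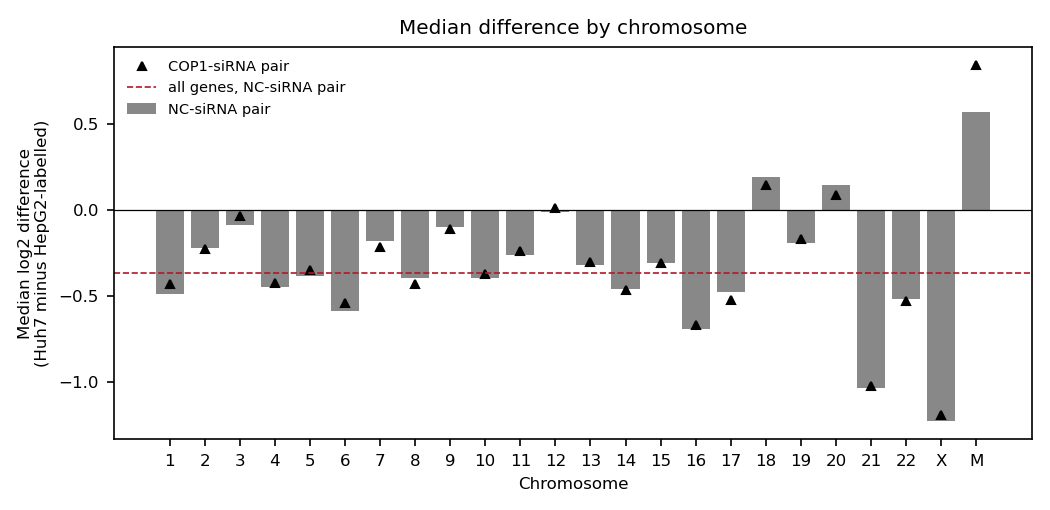
Median log2 difference (Huh7 minus HepG2-labelled) of the protein-coding genes of each chromosome in the NC-siRNA pair (bars) and in the COP1-siRNA pair (triangles), with the median over all genes as a dashed line at −0.37. X and chromosome 21 lie lowest at −1.23 and −1.03, and M is the mitochondrial genome.

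Smaller regions stood apart too. Windows of 10 Mb were used where they held at least 20 of the protein-coding genes compared. The lowest median was −1.80, for 25 genes between 120 and 130 Mb of chromosome 4. Of these, 21 were higher in the HepG2-labelled library and 0 in Huh7. The highest was 1.54, for 25 genes between 50 and 60 Mb of chromosome 11, of which 17 were higher in Huh7. Runs of neighbouring genes past 2-fold in the same direction were longest on chromosome 3, where 19 genes, named for their number after the runs were seen, from EOGT to ROBO1 (chr3:68975220-79767998) had a median of −2.08. On X, 8 genes from NUDT10 to TSPYL2 (chrX:51332231-53088540) had a median of −4.16, close to the −4.17 of 10 genes around the HOXB cluster (chr17:48542655-48728750). Also on X, 16 genes from PGK1 to TRMT2B (chrX:78104248-101052118) had a median of −3.04. Within the major histocompatibility complex, likewise chosen after the runs were seen, 12 genes from PBX2 to HLA-DPA1 (chr6:32184733-33080748) had a median of −1.78. These runs were all higher in the HepG2-labelled library. The longest run higher in Huh7 held 11 genes from RHOD to CORO1B (chr11:67056847-67443821), with a median of 2.39. ALB, AFP and the chemokine genes CXCL8, CXCL6, CXCL1, CXCL5, CXCL3 and CXCL2 formed a run of 8 genes (chr4:73404287-74099195) with a median of 4.76, the furthest from 0 of all runs found. Coordinates are on GRCh38, and the copy number of these regions was not measured.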

How the data were processed

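Per the labels, stranded poly(A) libraries were sequenced, 1 for each line and siRNA. The submitters' processing notes name FastQC 0.11.7, Trimmomatic 0.38, HISAT2 2.1.0, StringTie 2.1.3b, edgeR and the GRCh38 build, and how overlapping genes were counted is not given in the sources used here. The authors deposited a table per library with the TPM of each gene, which is normalised within the library. The FPKM that the authors deposited served as an alternative, and so did the deposited coverage, the mean read depth over the gene. The tables hold no read counts, so the read depth cannot be given. Coverage divided by FPKM had a median of 5.41 and 6.12 in Huh7 and 4.72 and 6.00 in HepG2 (NC-siRNA, COP1-siRNA), which gives relative depth only, and no interval was computed.

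TPM was summed per gene number (51 occurred more than once), and symbols were found for 96.3% of gene numbers in RefSeq. Genes of at least 1 TPM in either NC-siRNA library were compared as log2 ratios with a pseudocount of 1 and a threshold of 2-fold, without a test because each group had 1 library. The calculation was tested on simulated data. Members and gene lists were chosen with earlier results of these data known. From each of 34 lists, up to 4 genes past 2-fold in each direction and up to 2 others of highest TPM could be named, with the 10 protein-coding genes of largest difference in each direction, the 10 genes of highest TPM, the markers and COP1, and other names are said to be chosen after their values were seen or follow from a run of neighbours. A few genes and 1 list that this rule names are not reported here. Alternatives were a pseudocount of 0.1, FPKM, coverage, scaling by median of ratios, by upper quartile or by quantiles, TPM without the 10 highest genes, no minimum, a minimum of 5 TPM, protein-coding genes only, repeated gene numbers kept apart, a 4-fold threshold and the COP1-siRNA pair. Calculations ran in Python 3.11.15 (numpy 2.4.6, pandas 2.3.3, matplotlib 3.10.9).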

Additional observations from a re-analysis of the deposited data

Results flagged for a closer look

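For 10 named genes the line difference had opposite signs in the NC-siRNA and COP1-siRNA pairs, and with 1 library per group the difference between pairs was not tested. The widest was SERPINF2, the plasmin inhibitor, with a log2 difference of 0.47 with NC-siRNA and −0.45 with COP1-siRNA. APOA1 had 0.00134 and −0.58, and SNHG1 had −0.0318 and 0.28. The other genes were close to 0 in both pairs, with CYP27A1 at 0.0554 and −0.23, ENO1 at 0.0325 and −0.24, HOXC10 at −0.11 and 0.11, MEIS2 at 0.12 and −0.16, NRAS at −0.0311 and 0.0598, SAA4 at 0.25 and −0.016, and TEX15 at 0.061 and −0.0438. The median of the innate immunity and interferon list was 0.029 and −0.10. None of these values was past 2-fold in either pair.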

How the results depend on the processing

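The number of genes higher in Huh7 was 2215 and moved to 1456 with depth-scaled coverage in place of TPM and to 883 at a 4-fold threshold. The number higher in HepG2 was 4194 and moved to 2795 at a minimum of 5 TPM and to 1312 at 4-fold. The median log2 difference of all genes was −0.37, −0.0344 under median-of-ratios scaling and −0.0617 under quantile normalization, and below 0 under every alternative. Of 230 named genes past 2-fold, 221 stayed past it in the same direction in the COP1-siRNA pair, 209 with coverage and 218 under quantile normalization, and 0 changed sign under these alternatives. The naming rule picks large differences in the NC-siRNA pair, so these counts do not describe genes in general. Of all genes past 2-fold, 85.0% of those higher in Huh7 and 82.9% of those higher in HepG2 stayed past it in the COP1-siRNA pair. The list medians of plasma proteins, liver transcription factors, HOX genes and antigen presentation kept their sign under all alternatives run. The median of the endothelial list, which rests on PECAM1 alone, was 2.57 and reversed to −0.10 with no minimum, where genes of very low TPM enter. Medians of phase II enzymes, glucose metabolism, Wnt targets, imprinted genes, innate immunity, cell cycle, stellate markers, phase I enzymes and long noncoding RNAs changed sign under at least 1 alternative. The causes were not tested. No paired analysis was possible because the groups share fewer than 2 replicate numbers. With an unknown number of reads, the counting error of genes near the 1 TPM limit is unknown.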
